A study of Mus musculus with 5 samples.

Results

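The ubiquitin and proteasome genes described here are the protein-coding genes whose symbol begins with Psma, Psmb, Psmc, Psmd, Psme or Ube2, or with Trim or Usp and a number. The immunoproteasome genes Psmb8, Psmb9 and Psmb10 and the interferon-stimulated Usp18 were set aside by the same rule. The symbols came from the authors' lists of H3K4me3 and STAT3 regions, and 156 symbols gave 154 genes once older names had been merged, of 13923 protein-coding genes with a listed start. They fell into 6 Psma, 6 Psmb, 7 Psmc, 13 Psmd, 4 Psme, 31 Ube2, 41 Trim and 46 Usp genes. Of these, 3 match by their letters alone: Psmc3ip encodes a meiotic recombination partner, Ube2cbp a protein that binds a conjugating enzyme, and Usp6nl a GTPase-activating protein. Unless stated otherwise, each is counted with the group of its letters, Psmc3ip also among the proteasome genes.

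Ubiquitin is attached to proteins by a relay of activating (E1), conjugating (E2) and ligase (E3) enzymes, and it is removed by deubiquitinases, of which the ubiquitin specific proteases are the largest family. Ube2 genes encode conjugating enzymes, some of which carry related modifiers such as SUMO, NEDD8 or ISG15 in place of ubiquitin. TRIM proteins are ligases of the RING type, many of which act in antiviral and inflammatory signalling in myeloid cells. Proteins carrying suitable ubiquitin chains are degraded by the proteasome, a barrel of alpha and beta subunits (the 20S core) capped by a regulatory particle of ATPase and non-ATPase subunits (19S) or by separate activators. In dendritic cells this machinery also supplies peptides for presentation on MHC class I.

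The cells were dendritic cells grown from the bone marrow of C57BL/6 female mice, 10 weeks old, in GM-CSF and IL-4 (each 10 ng/mL) over 7 days, and then selected on CD11c to a labelled purity of 95%. They were exposed for 12 hours to diluent or to SAHA (vorinostat), an inhibitor of histone deacetylases, at a labelled dose of "500 nm". The question posed was where STAT3 binds when deacetylases are inhibited. Each of 5 libraries was the only one of its group: STAT3 and H3K4me3 (trimethylation of histone H3 at lysine 4, a mark of active promoters) in diluent and in SAHA, and IgG from diluent cells alone, which served as control for both conditions. Filtered tags, which are mapped reads left after removal of excess duplicates, numbered 22420200 and 21428355 for H3K4me3 in diluent and SAHA, and 25013431 and 17810183 for STAT3. With 1 library a group, no test between conditions is possible, and each interval below covers counting error only. All 10 scored dendritic cell markers and all 6 macrophage and monocyte markers carried H3K4me3 in both lists. Of the B cell genes, Pax5 carried none and Cd79b did so in diluent only, while 3 of 3 granulocyte genes carried it in both, with Elane at 33 tags in diluent and 136 in SAHA. The T cell genes Lck (744 and 905 tags) and Cd3d (409 and 372) and the epithelial gene Epcam (128 and 129) also carried it in both, Col1a1 did so in SAHA only, and Cd4, Gata4, Foxa2, Klrb1c and Nkg7 carried none. The part of other cells in the results was not tested.

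H3K4me3 lay near most of the listed genes. A gene entered only when the authors' lists named it for a region, so a region near the start was partly built in. The same holds for the shares over all protein-coding genes. RefSeq has 203 coding genes that fit the rule, and those without a listed start are not counted here. A region lay within 5 kb of a listed start for 144 of the 154 genes in diluent (93.5%, exact 95% interval 88.4 to 96.8) and for 144 in SAHA, with 143 in both (83.5% of all genes were in both). Over all protein-coding genes the share was 84.5% in diluent and 85.6% in SAHA. All 36 listed proteasome genes were marked in both conditions. The unmarked genes among those listed belonged to the other families. In either list, 9 had no region within 5 kb of a listed start: Ube2h, Trim29, Trim43b, Trim55, Trim63, Trim9, Usp26, Usp35 and Usp50. Starts that the lists do not give were not examined. At Ube2h the nearest region called in the library alone lay 56256 bp from the listed start in diluent and 56085 bp in SAHA. Trim55 and Trim63 encode muscle ligases. Trim67 was marked in diluent only, by a region of 74 tags and 1189 bp, and Usp54 in SAHA only, by a region of 37 tags and 779 bp.

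For 137 genes, 1 region of the diluent library and 1 of the SAHA library overlapped each other alone, and these pairs give the levels and widths below. The median gene had 1277 tags in diluent and 1170 in SAHA, and the median over all 11154 genes with a pair was 969 and 891.5. Per kb of called width, the level in diluent was 521 tags at the median proteasome gene, 455 over the 137 genes and 381 over all genes. It was lowest at Psma8 (62.1 tags per kb), an alpha subunit of the testis, and at Usp43 (84.4). It was highest at Trim11 (722 tags per kb), Usp48 (699) and Psma2 (676).

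**Figure D1:**
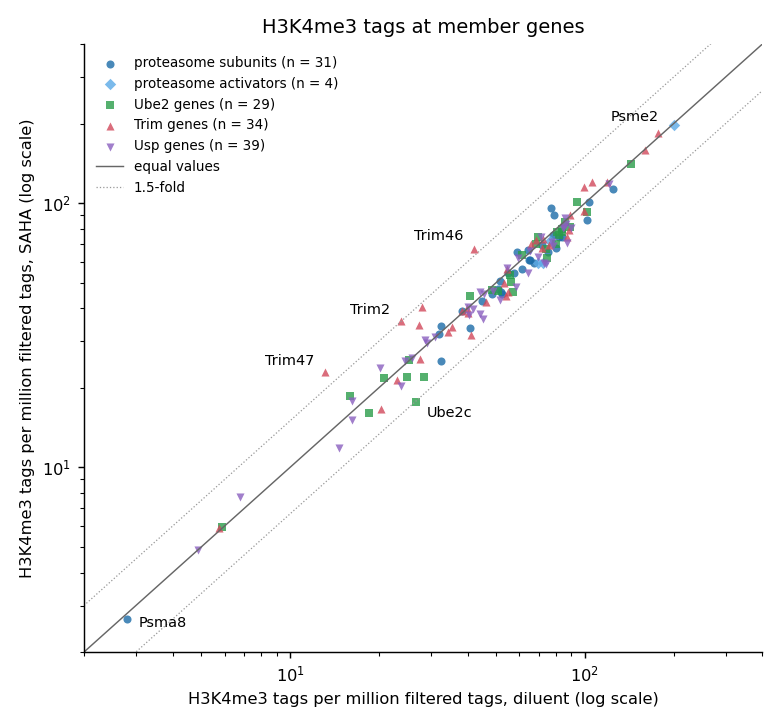
H3K4me3 tags normalised to the filtered tags of each library, in diluent (horizontal, log scale) and SAHA (vertical, log scale), 1 point for each of the 137 genes with a pair of regions, marked by family. The dotted lines stand for a 1.5-fold difference: Trim47 and Trim46 lie above the upper line and Ube2c below the lower one, and the others lie between them.

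The change under SAHA was small at most of these genes. The ratio of tags in SAHA to tags in diluent, scaled to filtered tags, was within 1.25-fold at 126 of 137 genes, against 79.3% of all genes. The median log2 ratio was -0.07, with 90 genes below 0, and over all genes it was -0.04, with 57.7% below 0. A ratio counted as changed where it reached 1.5-fold and its 95% interval, from an exact conditional binomial calculation on the tags, did not hold 0. By that rule 2 genes were higher in SAHA (Trim47 and Trim46), where 6.5% of all genes were, and 1 was lower (Ube2c), where 1.86% of all genes were. The gene just outside on the higher side was Trim2, at 0.58. The interval lay wholly above 0 at 13 genes (21.6% of all genes) and wholly below 0 at 48 (31.2% of all genes). Whether fewer cells carried the mark or each cell carried less of it cannot be told apart.

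Regions called in SAHA were wider, so the level per kb differed more. The median width was 2771 bp in diluent and 2890 bp in SAHA, and 94 of 137 regions were wider in SAHA, against 72% over all genes. Tags per kb were lower in SAHA at 114 of the 137 genes (83.2%, against 70.3% of all genes). The median log2 ratio per kb was -0.18 (-0.13 over all genes). Past 1.5-fold per kb, Trim47 was higher (3.1% of all genes were), and Ube2d3, Trim30a and Usp40 were lower (1.89% of all genes were). The start of another gene lay in the region of 9 of the 137 genes (8.13% of all genes). Regions at least 1.5-fold wider in SAHA occurred at 6 genes (3.92% of all genes), and at least 1.5-fold narrower ones at none (0.986% of all genes). Across the 137 genes the log2 ratios of tags and of width were related with r = 0.32 (Pearson) and rho = 0.31 (Spearman). Both ratios come from the same called regions, and genes are not independent replicates.

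**Figure D2:**
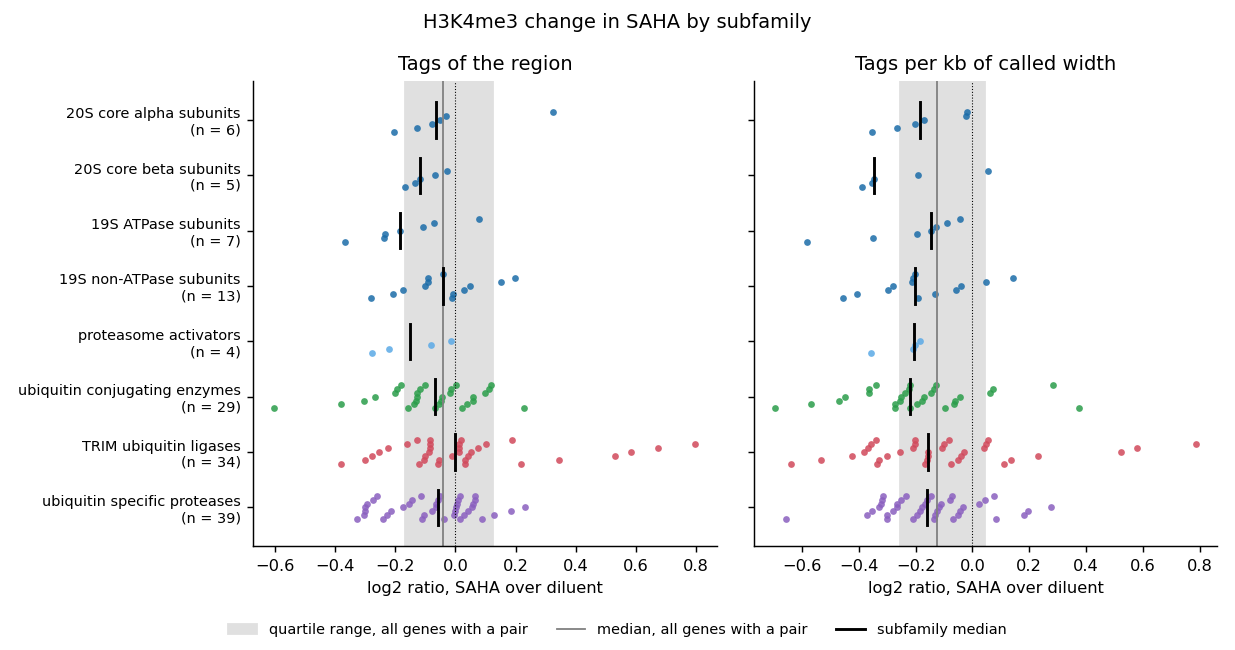
Log2 ratio of H3K4me3 in SAHA over diluent by subfamily, for the tags of the region (left) and for tags per kb of called width (right). Points are genes, black bars are subfamily medians, and the grey band and line are the quartile range and median over all 11154 genes with a pair. Subfamily medians of tags lie between -0.18 and 0, and those per kb between -0.35 and -0.15.

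Among the alpha subunits, which form the outer rings of the core and its gate, Psma6 stood apart. It had 1718 tags in diluent and 2056 in SAHA, a log2 ratio of 0.32 (0.23 to 0.42). Its region, at chr12:56498433-56502650 in diluent (mm9), widened from 4218 to 6073 bp, and per kb its log2 ratio was -0.20. The other members were level or lower: Psma2 had 1681 tags in diluent and 1395 in SAHA (log2 ratio -0.20), within a region that also holds the start of Mrpl32. Psma1 had 1825 and 1595 tags (-0.13). Psma7, with the widest alpha subunit region in diluent (5660 bp, shared with the start of Ss18l1), had 2310 and 2159 tags (-0.03). Psma8, with the narrowest region (1014 bp), had 63 and 57 tags. The median log2 ratio over the 6 genes was -0.06.

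The beta subunits form the inner rings that hold the proteolytic sites, and all 5 with a pair had fewer tags in SAHA after scaling. Psmb7, a catalytic subunit, had 1162 tags in diluent and 990 in SAHA (log2 ratio -0.17). Psmb1, with the widest beta region (5028 bp in diluent), had 2792 and 2431 tags (-0.13), and Psmb2 had 1368 and 1204 (-0.12). Psmb4 was lower by the least, at -0.03. The median was -0.12 for tags and -0.35 per kb. Psmb3 had no pair, because 2 diluent regions met 1 SAHA region, and the tags summed within 5 kb were 2818 and 3124 (log2 ratio 0.21).

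The ATPase subunits unfold substrates and drive them into the core. Over the 7 Psmc genes, which include Psmc3ip, the median log2 ratio was -0.18. Of these 7 intervals, 4 lay below 0, that of Psmc3ip among them, with none above. Psmc2 had 2277 tags in diluent and 1845 in SAHA (-0.24), Psmc5 had 1784 and 1449 (-0.23), and Psmc1 had 1508 and 1270 (-0.18). Psmc3ip, which is no ATPase and had the narrowest region of the group (1580 bp), went from 731 to 542 tags (-0.37).

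The non-ATPase subunits include ubiquitin receptors, a deubiquitinase and assembly chaperones, and their ratios lay on both sides of 0. Psmd13, a lid subunit, had 1766 tags in diluent and 1936 in SAHA (log2 ratio 0.20, interval 0.10 to 0.29), while its region widened from 3192 to 4856 bp and its ratio per kb was -0.41. That region also holds the start of Sirt3. Psmd8 had 1318 and 1398 tags (0.15). On the lower side stood Psmd10 (gankyrin, an assembly chaperone) with 913 and 719 tags (-0.28), Psmd4 (a ubiquitin receptor) with 1170 and 969 (-0.21), and Psmd5 (an assembly chaperone) with 1878 and 1590 (-0.17). Psmd6 and Psmd8 were 2 of the 3 proteasome genes with more tags per kb in SAHA, beside Psmb4. Over the 13 genes the median log2 ratio was -0.04.

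Of the activators, Psme1 and Psme2 encode the interferon-inducible cap that opens the core, Psme3 its nuclear relative and Psme4 a single-chain activator. Psme2 had the most tags of all 137 genes, 4484 in diluent and 4244 in SAHA, over 7363 and 8387 bp. Its log2 ratio was -0.01. Psme1, its partner on the same chromosome, had 1611 and 1271 tags (-0.28), and Psme3 1555 and 1276 (-0.22). Taking the 35 proteasome genes with a pair as 1 group, Psmc3ip included, 29 had a ratio below 0, and 14 intervals lay below 0 with 3 above.

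**Figure D3:**
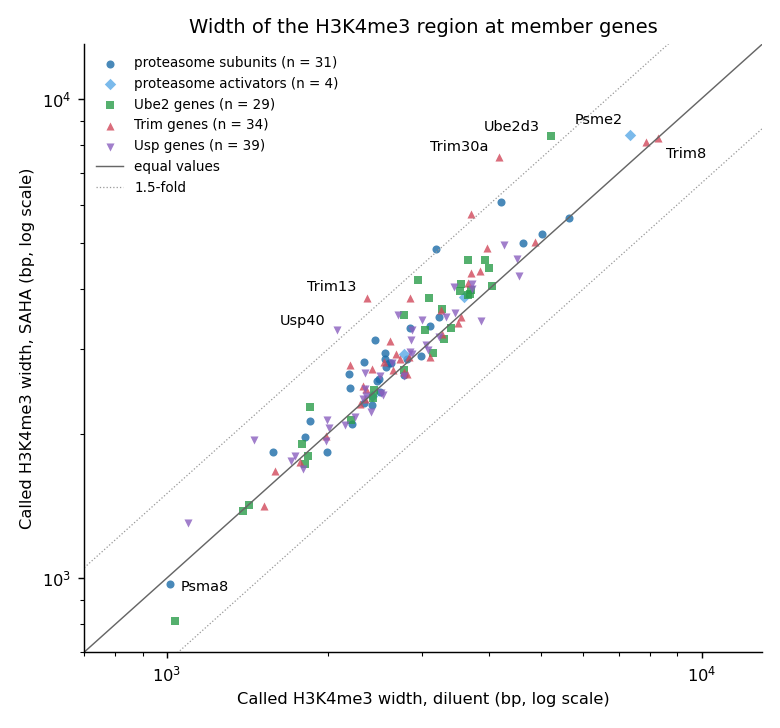
Width of the called H3K4me3 region in diluent (horizontal, bp, log scale) and SAHA (vertical, bp, log scale) for the 137 genes with a pair. The dotted lines stand for a 1.5-fold difference: 6 genes lie above the upper line, among them Ube2d3, Trim30a, Trim13 and Usp40, and none lies below the lower one.

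The conjugating enzymes held the lowest ratio of the 137 genes. Ube2c, the enzyme that serves the anaphase-promoting complex in mitosis, had 600 tags in diluent and 378 in SAHA, a log2 ratio of -0.60 (interval -0.79 to -0.41). Its region kept nearly the same width, chr2:164594577-164596411 in diluent and chr2:164594536-164596328 in SAHA, so the ratio per kb was -0.57. Ube2t, the conjugating enzyme of the Fanconi anaemia DNA repair pathway, went from 640 to 470 tags (-0.38, interval -0.55 to -0.21). Both genes had a listed STAT3 region over the start in SAHA and none in diluent. The 250 bases upstream of their starts, as RefSeq gives them on GRCm38.p6 (chr2:164769679-164769928 and chr1:134962315-134962564, plus strand), are shown because they hold several copies of CCAAT, the box bound by NF-Y, counted on either strand. It occurs 6 times at Ube2c and 3 times at Ube2t, in capitals, ATTGG being the same box on the other strand and adjoining boxes sharing letters.
Ube2c: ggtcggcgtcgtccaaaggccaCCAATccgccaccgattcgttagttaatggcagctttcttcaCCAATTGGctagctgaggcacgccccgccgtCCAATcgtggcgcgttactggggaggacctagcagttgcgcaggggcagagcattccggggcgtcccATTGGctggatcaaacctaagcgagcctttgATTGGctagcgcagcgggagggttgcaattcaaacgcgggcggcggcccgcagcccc
Ube2t: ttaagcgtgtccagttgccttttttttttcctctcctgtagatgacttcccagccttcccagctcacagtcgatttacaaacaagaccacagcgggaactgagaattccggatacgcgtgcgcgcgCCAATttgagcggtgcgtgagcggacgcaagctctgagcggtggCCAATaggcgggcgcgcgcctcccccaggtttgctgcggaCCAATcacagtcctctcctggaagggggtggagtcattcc

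Other conjugating enzymes with lower levels in SAHA were Ube2n, which builds signalling chains of ubiquitin with a Ube2v partner (1277 and 988 tags, log2 ratio -0.30), and Ube2g1 (1669 and 1327 tags, -0.27). Ube2l6, the enzyme for the interferon-induced modifier ISG15, had 1793 and 1499 tags (-0.19). The 2 intervals above 0 belonged to Ube2e1 (357 and 400 tags, 0.23) and Ube2q1 (2104 and 2172 tags, 0.11), and per kb Ube2q1 was at -0.22. Ube2d3, with the widest region of the family, kept its tags (3202 and 3023, -0.02) while the region widened from 5226 to 8353 bp, and its ratio per kb was -0.69. Ube2e2 had the narrowest region, 1037 bp with 132 tags in diluent and 128 in SAHA. Ube2e3 had no pair, and its summed tags were 790 and 657. Over 29 genes the median log2 ratio was -0.07, with 13 intervals below 0 and 2 above.

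TRIM genes spread the most, with 7 intervals above 0 and 7 below and a median log2 ratio of 0. Trim47 had 295 tags in diluent and 490 in SAHA, a log2 ratio of 0.80 (0.59 to 1.01), at an almost unchanged width (2347 and 2362 bp, chr11:115970047-115972393 in diluent). In diluent its 126 tags per kb were among the lowest of the 137 genes. Trim46, a microtubule-associated member, had 944 and 1440 tags (0.67, interval 0.56 to 0.79). Its region at chr3:89048452-89051706 also holds the start of Krtcap2, so its tags cannot be assigned to 1 of the genes. Trim2, known as a neuronal ligase, had 534 and 765 tags (0.58, interval 0.42 to 0.75). With all regions within 5 kb summed, its log2 ratio was 0.34. Trim13, a ligase of the endoplasmic reticulum membrane, had 629 and 869 tags (0.53) over a region that widened from 2368 to 3828 bp, and per kb its ratio was -0.16. Thus Trim47, Trim46 and Trim2 were higher on both scales and Trim13 on the tag scale only.

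On the lower side were Trim65 (924 and 678 tags, log2 ratio -0.38), Trim68 (457 and 355, -0.30), Trim37, a centrosome-associated ligase (1207 and 951, -0.28), and Trim7 (1228 and 984, -0.25). The widest region was that of Trim8, a regulator of cytokine signalling, with 3971 tags over 8300 bp in diluent and 3936 over 8280 bp in SAHA. Trim17 followed with 7871 bp in diluent. Trim69 had 129 and 126 tags. Trim25, the ligase that modifies the RNA sensor RIG-I, had 5783 tags over 7173 bp in diluent. The single-library SAHA table gave no region within 5 kb of its start, whereas the SAHA list against IgG gave one of 12275 bp, so its change could not be computed.

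Trim30a and Trim30d are neighbouring copies on chromosome 7, known as interferon-inducible regulators of innate signalling. Trim30a had 2220 tags in diluent and 2470 in SAHA (log2 ratio 0.22), and its region spread from 4175 bp (chr7:111610712-111614886) to 7562 bp (chr7:111607399-111614960), with a ratio per kb of -0.64. Trim30d had 1998 and 1925 tags (0.01) over 3853 and 4365 bp. Both had a STAT3 region over the start in SAHA. Their upstream sequences (RefSeq, GRCm38.p6, minus strand, chr7:104465194-104465443 and chr7:104507850-104508099) are shown because they are near copies, with 226 of 245 aligned bases identical (92.2%). Reads from such copies can be placed at either gene, so the values of the 2 genes are uncertain. Capitals mark 1 CCAAT box and 1 match to the repeat bound by interferon regulatory factors (GAAA, any 2 bases, GAAA), both read on the opposite strand.
Trim30a: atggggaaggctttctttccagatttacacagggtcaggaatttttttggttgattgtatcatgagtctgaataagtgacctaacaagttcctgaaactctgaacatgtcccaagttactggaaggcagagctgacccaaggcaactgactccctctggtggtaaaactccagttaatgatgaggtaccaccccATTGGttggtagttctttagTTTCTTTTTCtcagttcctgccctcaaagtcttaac
Trim30d: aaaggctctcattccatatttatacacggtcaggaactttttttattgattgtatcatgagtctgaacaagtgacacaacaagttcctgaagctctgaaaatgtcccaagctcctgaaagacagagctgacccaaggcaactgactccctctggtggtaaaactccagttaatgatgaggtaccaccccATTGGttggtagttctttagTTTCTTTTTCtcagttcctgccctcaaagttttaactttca

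Ubiquitin specific proteases were mostly level or lower, with 14 intervals below 0 and 1 above and a median log2 ratio of -0.06. The exception was Usp30, the deubiquitinase of the mitochondrial outer membrane, with 454 tags in diluent and 509 in SAHA (0.23, interval 0.04 to 0.42). Usp9x had 1654 and 1261 tags (-0.33) over the widest region of the family in diluent (4549 bp). Usp5, which takes apart free ubiquitin chains, had 1956 and 1517 tags (-0.30), Usp28 had 1009 and 784 (-0.30), and Usp2 had 328 and 254 (-0.30). When all regions within 5 kb of its start were summed, Usp2 turned to 0.18. Usp40 had nearly the same tags, 900 and 865, over 2077 bp in diluent and 3289 bp in SAHA. The narrowest region was that of Usp51, 1096 bp with 109 and 104 tags. Usp1, Usp39 and Usp7 had no pair, and the log2 ratios of their summed tags were -0.08, -0.17 and 0.02.

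In the authors' lists, STAT3 regions near these genes were few in diluent and more frequent in SAHA, as over all genes. A region of the authors' list lay within 5 kb of a start at 11 genes in diluent (7.14%, interval 3.62 to 12.4) and at 32 in SAHA (20.8%, interval 14.7 to 28.1). The shares over all protein-coding genes were 6.37% and 18.3%, inside both intervals. The lists held 3507 regions in diluent and 8552 in SAHA. Regions called in each library without control did not show that direction: they numbered 844 in diluent and 784 in SAHA. They lay near 3 of the 154 genes in each, with none in both. Filtered STAT3 tags differed, 25013431 in diluent and 17810183 in SAHA, so neither pair of counts comes from equal depth. The IgG library called alone gave 606 regions. When equal numbers of top-scoring regions were taken, 11 and 23 genes had a region, against 6.37% and 9.52% of all genes. Both conditions had a region at 5 genes (3.25%, against 1.82% of all genes), 6 had one in diluent only and 27 in SAHA only.

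By family, conjugating enzymes had a STAT3 region in SAHA at 10 of 31 genes (32.3%, interval 16.7 to 51.4), and that interval holds the 18.3% of all genes. Beta subunits had one at 2 of 6 (33.3%, interval 4.33 to 77.7). TRIM genes had one at 9 of 41, ubiquitin specific proteases at 7 of 46, and proteasome genes at 6 of 36. In diluent the counts were 3 for conjugating enzymes, 0 for beta subunits, 4 for TRIM genes, 2 for ubiquitin specific proteases and 2 for proteasome genes. No alpha subunit had a region in either condition, and with 6 genes the interval reaches 45.9%.

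**Figure D4:**
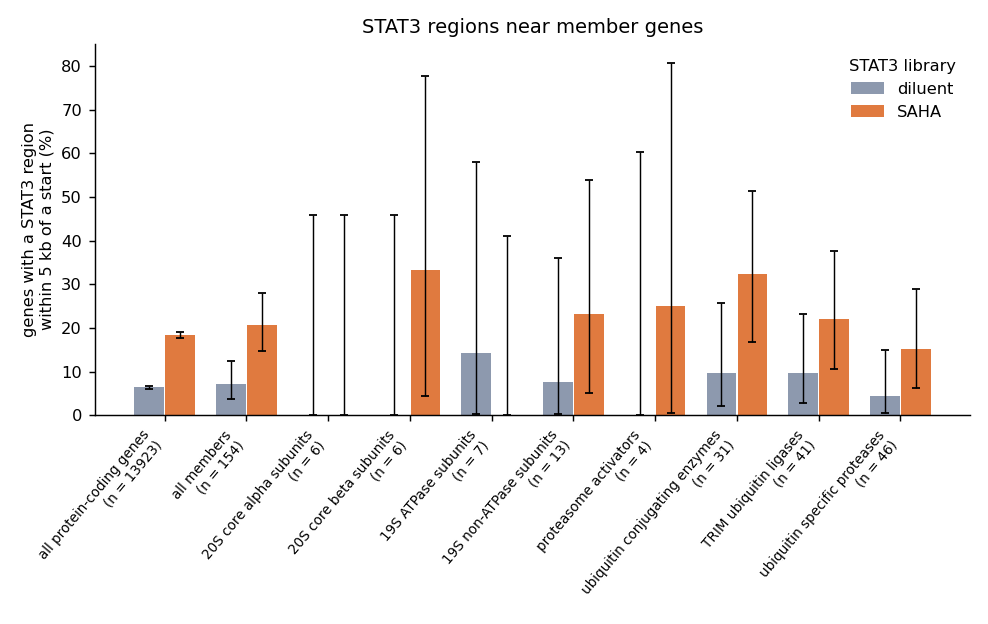
Percent of genes with a STAT3 region within 5 kb of a listed start in diluent (grey bars) and SAHA (orange bars), for all protein-coding genes, all 154 genes and each subfamily. Error bars are exact 95% binomial intervals, which cover counting error only. The bars of the 154 genes, 7.14% and 20.8%, stand close to those of all genes, and the subfamily intervals are wide.

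At 2 of the 5 genes with STAT3 in both conditions the regions overlapped. By region, 2 of 11 in diluent overlapped one in SAHA (18.2%, against 12.3% of regions near any gene). In SAHA 2 of 35 overlapped one in diluent (5.71%, against 4.09%). Ube2b, the homologue of yeast Rad6, had regions at chr11:51813899-51814696 in diluent and chr11:51813694-51814615 in SAHA (mm9), which shared 717 bp over its start. Their MACS scores, the authors' own values ranked within each list, were 69.82, the highest of any region near these genes in diluent, and 46.55. At Trim30d the regions chr7:111655930-111656556 and chr7:111655977-111656414 shared 438 bp, with scores of 46.30 and 46.01. At the other 3 genes the regions lay apart. Trim2 had its diluent region (score 55.79) 303 bp from a SAHA region that began 1 bp from a listed start (score 46.15), and a further SAHA region (43.38) near another start. The Usp37 regions (30.83 and 45.43) were 2367 bp apart. Those of Trim14, a mitochondrial adaptor without a RING domain, were 4286 bp apart (30.33 and 30.94).

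Regions in diluent only lay at Ube2k (score 50.62), Psmd3 (45.91), Trim69 (42.82), Ube2e3 (37.56), Psmc6 (34.56) and Usp25 (31.04). Those of Psmd3 and Psmc6 covered the start.

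In SAHA only, the leading gene was Usp49, a deubiquitinase of histone H2B, with a region over each of a pair of listed starts: chr17:47748230-47749111 (score 78.76) and chr17:47766814-47767744 (60.61). Psmd1, a scaffold subunit of the regulatory particle, had a region over its start at chr1:87960661-87961461 (64.03), and Usp20 one at chr2:30837491-30838546 (61.09). The H3K4me3 region of Usp20 also holds the start of BC005624, and that of Usp49 the start of Bysl. Further conjugating enzymes were Ube2e1 (56.89), Ube2d3 (53.71 and 32.57), Ube2l6 (50.97), Ube2c (48.24, chr2:164595256-164595808) and Ube2t (46.84, chr1:136858693-136859361). The regions of Ube2l6, Ube2c and Ube2t covered the start, and that of Ube2e1 lay 3441 bp from the start on the side of the gene body. Among TRIM genes stood Trim65 (52.29), Trim30a (52.08, chr7:111613428-111614057), Trim6 (44.76), Trim37 (37.88) and Trim7 (32.76). Usp4 (49.88), Usp6nl (41.75) and Usp42 (30.40) were the other leading Usp genes.

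Proteasome genes with STAT3 in SAHA only were, beside Psmd1, Psmb3 (43.59), Psmd8 (39.96), Psmb6 (37.94), Psmd10 (36.66) and Psme4 (30.95). The region near Psmb3 is assigned to Pcgf2 in the authors' list, and that near Usp4 to Gpx1. Of these, Psmd1 and Psmd10 had the region over the start. The upstream sequences of Psmd10 and Usp49 (RefSeq, GRCm38.p6, chrX:140956712-140956961, minus strand, and chr17:47630440-47630689, plus strand) are shown as examples at starts under a STAT3 region. They hold no TTCNNNGAA, the palindrome bound by STAT proteins, which occurs in only 6.58% of all promoters of that length. The bases under the STAT3 regions were not read, so its absence here tells nothing about sites in those regions. Capitals mark CCAAT boxes on either strand, 3 at Psmd10 and 1 at Usp49, and 1 interferon response repeat at Usp49.
Psmd10: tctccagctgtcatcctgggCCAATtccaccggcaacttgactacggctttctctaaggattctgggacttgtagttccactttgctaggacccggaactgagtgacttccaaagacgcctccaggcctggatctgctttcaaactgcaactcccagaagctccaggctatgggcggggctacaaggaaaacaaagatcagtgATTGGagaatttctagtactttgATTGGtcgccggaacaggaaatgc
Usp49: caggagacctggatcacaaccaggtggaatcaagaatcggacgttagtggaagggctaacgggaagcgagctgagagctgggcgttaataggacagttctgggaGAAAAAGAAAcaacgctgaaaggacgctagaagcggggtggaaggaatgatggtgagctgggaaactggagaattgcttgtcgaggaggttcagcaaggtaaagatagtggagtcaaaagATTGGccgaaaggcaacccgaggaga

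**Figure D5:**
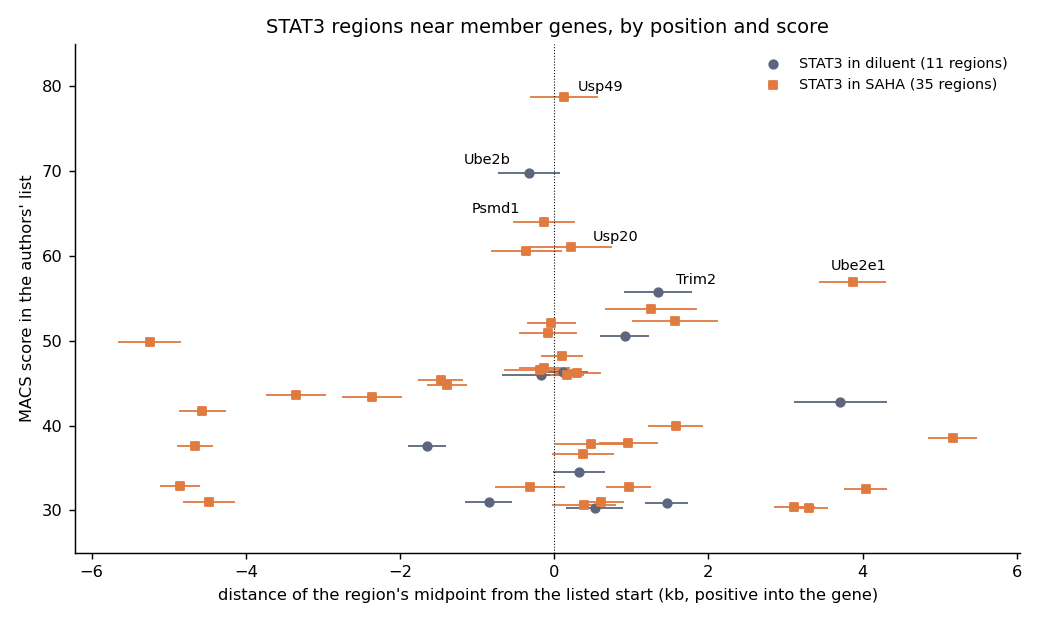
MACS score (vertical) and position (horizontal, kb from the listed start, positive into the gene) of the 11 STAT3 regions in diluent and the 35 in SAHA near the 154 genes. Points are midpoints and bars the called widths. Scores run from 30.28 to 78.76 and many of the higher ones sit at or near the start.

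Most of these STAT3 regions lay in H3K4me3. In diluent 10 of 11 regions overlapped an H3K4me3 region of the same condition (90.9%, against 62.0% of the 852 regions near any gene), and in SAHA 26 of 35 did (74.3%, against 60.3% of 2593). The start itself was covered by 4 of 11 regions in diluent (36.4%, against 23.8%) and 13 of 35 in SAHA (37.1%, against 29.8%). None of these regions overlapped a region of the IgG library, and near any gene 0 of 852 in diluent and 1 of 2593 in SAHA did. The lists were made against IgG, so this count says little about background. The median score was 42.8 in diluent and 43.6 in SAHA, and 36.3 and 36.9 over all genes. These shares describe single libraries. The regions near any gene include those at genes without H3K4me3. In diluent 93.5% of the 154 genes were marked, against 84.5% of all genes, with a median width of 2771 bp against 2438 bp. A difference in overlap was not tested.

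Genes with and without a STAT3 region in SAHA had near medians of the H3K4me3 ratio. The median log2 tag ratio was -0.08 at the 31 genes with a pair and a STAT3 region in SAHA, and -0.06 at the 106 without. Ube2c and Ube2t, with lower H3K4me3 on both scales, and Ube2e1 and Trim2, with higher on both, had a region in SAHA. Trim2 had one in diluent too. Psmd8, higher on both scales, and Trim65, Trim37, Trim7, Ube2g1, Psmd10 and Usp5, lower on both, also had a region in SAHA. So did Trim30a, higher in tags and lower per kb. Trim47 and Trim46 had none in either condition.

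Promoter sequences were given for 118 of the 154 genes, as 145 promoters of 250 bases. TTCNNNGAA occurred on either strand in 5.52% of them, against 6.58% of all 21263 promoters of that length, and in 0 of 33 promoters of proteasome genes and 0 of 15 promoters of genes with STAT3 over the start. TGACNNNGC, the antioxidant response core, occurred in 11.0% (10.4% of all promoters), and the interferon response repeat in 4.83% (2.96% of all). CCAAT occurred in 27.6% (35.4% of all), in 5 of 6 promoters of alpha subunits, and in 16.7% of those of ubiquitin specific proteases. These are letter matches in 1 window upstream of the start and no measure of binding. The sequences under the STAT3 regions were not read.

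The rest of the pathway was described from 8 lists of other genes, of which 113 had a listed start. All 113 carried H3K4me3 in both conditions (83.5% of all genes did), and genes without a listed start are not counted. For the 104 with a pair the median log2 ratio was -0.05, with 13 intervals above 0 (12.5%, against 21.6% of all genes) and 33 below (31.7%, against 31.2%). By the 1.5-fold rule 1 gene was higher (Klhl6), where 6.5% of all genes were, and 2 were lower (Fbxo11 and Zfp91), where 1.86% were. Klhl6, a substrate adaptor of cullin ligases, had 194 tags in diluent and 494 in SAHA (1.41, per kb 0.84). Fbxo11, an F-box protein, had 2441 and 1426 tags (-0.71) as its region narrowed from 5617 to 3246 bp, and per kb its ratio was 0.08. Zfp91, a zinc finger ligase, had 3331 and 1089 tags (-1.55) over 9029 and 2772 bp, with 0.16 per kb, and its region also holds the start of Lpxn. The lists against IgG gave 1 region in diluent near each of these 2 genes, and in SAHA 3 near Fbxo11 and 2 near Zfp91. At Fbxo11 and Zfp91 the called width was smaller in SAHA and the level per kb was not lower.

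By list, cullin ligase subunits had 10 of 20 intervals below 0 and 1 above, and HECT ligases 6 of 14 below and 3 above. Other RING and RBR ligases had 5 of 21 below and 3 above. Ubiquitin and ubiquitin-like genes had 5 of 10 below and 0 above. Ubiquitin receptors and the segregase had 3 of 11 below and 1 above, and other deubiquitinases 2 of 11 below and 3 above. Activating enzymes (9 genes) and proteasome assembly genes (8) had 1 each way. STAT3 regions lay near 20 of the 113 genes in diluent (17.7%, interval 11.2 to 26.0), near 28 in SAHA (24.8%, interval 17.1 to 33.8) and near 8 in both. The shares of all protein-coding genes were 6.37%, 18.3% and 1.82%, and the diluent interval, which covers counting error only, does not hold its share. Those shares include genes without H3K4me3. The 104 genes with a pair had a median width of 2985 bp in diluent, against 2438 bp over all genes. These genes are not independent replicates, and a difference in STAT3 from all genes was not tested. Among these was Fau, which encodes a ubiquitin-like protein fused to a ribosomal protein (score 56.92 in SAHA). Nfe2l1, the factor that induces proteasome genes when the proteasome is inhibited, had a region in both conditions (47.38 in diluent and 35.38 in SAHA), as did the autophagy receptor Nbr1 (51.27 and 33.50).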

How the data were processed

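Chromatin immunoprecipitation sequencing of 5 libraries was used, 1 a group (STAT3 and H3K4me3 in diluent and SAHA, IgG in diluent). The submitters' processing notes name BWA and the mm9 build. The file headers record MACS 1.4.0rc2, a p-value cutoff of 1e-05, no control library and up to 2 duplicates at a position for each library called alone. Those deposited tables hold a tag count and a fold enrichment (a ratio over local background) per region. The authors' deposited lists against IgG hold a MACS score per region and 1 gene with its start, and the calling behind them is not stated. A listed region was near a gene when it lay within 5 kb of its start.

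RefSeq named 14829 of the 17024 listed symbols (87.1%). The start given for Ube2v2 on another chromosome was not used. Tags were compared in H3K4me3 regions that overlap 1 to 1 by at least 1 bp, taking the pair nearest the start, scaled to filtered tags (Python 3.11.15, numpy 2.4.6, scipy 1.17.1, pandas 2.3.3, matplotlib 3.10.9). Intervals are exact at 95%: conditional binomial for ratios and Clopper-Pearson for shares. Tested on simulated data over 19170 pairs, the 1.5-fold rule recovered 99 of 100 regions raised 2-fold and 95 of 100 lowered 2-fold, with 164 false calls. The simulated tags held counting (Poisson) error only, on fixed pairs. Variation between libraries and in region calling was left out, so these figures do not carry over to the real libraries. Named genes were, per subfamily, up to 4 with the largest and 4 with the smallest ratio among those whose interval excludes 0, the widest and the narrowest region, genes marked in 1 condition only, genes with STAT3 in both conditions, and up to 5 by score with STAT3 in either condition alone. Per list of other pathway genes, the extreme ratios and up to 3 by STAT3 score were eligible. Other genes named, among them those with widened regions, were chosen after their values were seen. The genes and lists were chosen with earlier results of these data known. Alternatives covered distance, score minimum, equal region numbers, width, scaling, pairing and fold. Leaving out genes that match by letters only, or regions that hold another gene's start, was chosen after seeing the data. A few genes of the marker and pathway lists are counted in the lists but not reported here by name.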

Additional observations from a re-analysis of the deposited data

How the results depend on the processing

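No paired analysis was possible because each group had 1 library. Per kb of called width, the median log2 ratio over the 137 genes was -0.18 in place of -0.07, 1 gene was 1.5-fold higher and 3 were lower (Ube2d3, Trim30a and Usp40), and Psma6 (-0.20), Psmd13 (-0.41), Trim13 (-0.16) and Ube2q1 (-0.22) turned below 0. Summing all regions within 5 kb turned Usp2 to 0.18. With a fold of 2, 0 genes were higher and 0 lower. Scaling to all tags before filtering, which moves each ratio by 0.03, left 0 lower and 3 higher, and setting the median of all pairs to 0 also gave 3 higher. Without regions that hold another gene's start, 1 was higher. STAT3 counts of 11 genes in diluent, 32 in SAHA and 5 in both became 6, 18 and 3 at a score of at least 40. They became 3, 3 and 0 with regions called in the single library without control. Within 1 kb of the start, 18 genes in SAHA and 3 in both remained, and within 10 kb 8 had a region in both. Under the settings tried the other counts stayed within 1.5 times and the other medians kept their direction. The settings were run on the ratios of 36 genes, those at the extremes of each subfamily. Apart from the 5 that turned these kept their direction, with 9 beyond their interval per kb and 3 with summed regions. Those 3 were Trim2 (0.34 in place of 0.58), Usp5 (-0.09 in place of -0.30) and Trim7 (-0.11 in place of -0.25). Outside these, the report gives opposite signs per kb for Trim30a, Fbxo11 and Zfp91, and Psmb4 was at 0.06 per kb against -0.03. With 1 library a condition, no value here has a replicate, and low STAT3 tag counts limit what can be compared.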

Other observations

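The 6 X-linked genes with a pair (Psmd10, Ube2a, Usp11, Usp27x, Usp51 and Usp9x) all had a log2 tag ratio below 0, with a median of -0.20. Over all X-linked genes the median was -0.05, and 206 of 347 were below 0. In diluent these 6 genes had a median of 546 tags, against 1306 for the other 131 genes. Over all genes the medians were 548 tags on X and 986 elsewhere.

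STAT3 regions called in the single library without control were near 3 of the 154 genes in diluent, Psmd3 (32 tags), Ube2b (31) and Trim2 (24), and near 3 in SAHA, Usp22 (26 tags), Ube2e1 (22) and Ube2t (20). The Usp22 region, at chr11:60987811-60988613 over the start, was in the single-library table and not among the listed regions against IgG near that gene. Usp22 encodes the deubiquitinase of the SAGA coactivator. Its H3K4me3 tags were 1334 in diluent and 1329 in SAHA.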
